A study of Mus musculus with 44 samples.

Results

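Cathepsins are the proteases of the lysosome and endosome, and the 10 described here are Ctsa, Ctsb, Ctsc, Ctsd, Ctse, Ctsh, Ctsk, Ctsl, Ctss and Ctsz. They were taken as the rows of the macrophage count table whose gene symbol is one of these names, which gave 10 of 46078 genes, 1 row for each name. All 10 passed the filter on low counts and were among the 14537 genes tested. Ctse passed at a very low level, with 6 to 140 counts in all per group. The label follows from that rule, so levels are no test of it. By mean level, scaled for library size, 9 of the 10 ranked between 3 and 371 among all genes, and Ctse ranked 12164.

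A cathepsin is made as an inactive precursor, carried to the lysosome largely by mannose 6-phosphate receptors, and made active by cleavage at acid pH. Cystatins and some serpins inhibit the enzymes that leave the lysosome. Ctsb, Ctsc, Ctsh, Ctsk, Ctsl, Ctss and Ctsz are cysteine proteases of the papain fold, Ctsd and Ctse are aspartic proteases, and Ctsa is a serine carboxypeptidase. In macrophages these enzymes digest engulfed material, cut the invariant chain (Cd74) and antigens for presentation on MHC class II, and, when secreted, degrade matrix.

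The cells were peritoneal macrophages of C57BL/6 mice, elicited by thioglycolate, collected 4 days after injection and selected by adherence over 24 h of culture. Cells of several mice were combined into 1 isolate, so the replicates are cultures of that isolate, and p-values measure only the spread between cultures. Cultures in DMEM with 10% fetal bovine serum received 10 µg/mL of an extract of H9c2, a cell line derived from rat heart, or 100 ng/mL of lipopolysaccharide (LPS), a bacterial product that drives the inflammatory M1 state. Others received 10 ng/mL of interleukin 4 (IL-4), which drives the alternative M2 state, or, as controls, no addition. RNA was taken after 8, 24 or 72 h. The 12 groups of stimulus and time had 4 libraries each, except extract at 24 h, extract at 72 h, IL-4 at 72 h and control at 72 h, which had 3. The title of the series places the study in the question of how molecules from damaged cells turn macrophages toward M1. Levels below are CPM, counts per M gene counts scaled by TMM, and a gene was called where the edgeR adjusted p was under 0.05.

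Gene counts per library ranged from 0.908 to 26.6 M, and group medians from 2.42 M (IL-4, 8 h) to 15.9 M (IL-4, 72 h). The 8 macrophage markers summed to 7901 to 30720.1 CPM in every library, and none was at 0 in any group. Their sum was highest with extract at 72 h, at 26580 to 30720.1 CPM. Mesothelial, fibroblast and smooth muscle or myofibroblast markers were highest in control cultures at 72 h. Mesothelial markers summed there to 83.5 to 128 CPM (7.55 to 70.2 CPM in the other groups). Fibroblast markers summed there to 488 to 1091 CPM (90.1 to 392 CPM in the others). Smooth muscle or myofibroblast markers summed there to 67.6 to 75.7 CPM (0.964 to 29.9 CPM in the others). Neutrophil markers summed to 294 to 518 CPM in LPS cultures at 72 h, against 13.8 to 171 CPM in the other groups. Of these 6 markers, S100a9, Ly6g and Mpo had only 51, 40 and 131 counts over all 44 libraries. The sum with LPS at 72 h thus rests mostly on the other markers. These values stand beside every comparison at 72 h below, and their part in the results was not tested. Control 8 h replicate 1 held Il6, an inflammatory cytokine, at 101 CPM, against 1.74 to 3.04 CPM in the other controls of that time. Without that library no 8 h call of a cathepsin with extract or LPS changed, and the 8 h call of Ctsl with IL-4 was lost. Control 24 h replicate 1 held Il6 at 15.3 CPM, against 0.749 to 2.94 CPM in the other controls of that time. Reads in the ambiguous entry, those that fell on more than 1 gene, made up 3.16% to 17.3% of a library and passed 10% in 7 libraries. All 7 are replicate 3 of their group (extract at 8 and 72 h, LPS at 24 and 72 h, control at all 3 times), and they held the ribosomal gene Rn18s-rs5 at 41310.5 to 78540.5 CPM, against 162 to 23067 CPM in the other libraries. In bulk RNA, fewer cells of a type and less RNA per cell cannot be told apart.

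Upstream sequences are shown to set known motifs of lysosomal, interferon and IL-4 signalling beside the genes whose levels are described below. RefSeq (GRCm38.p6) held upstream sequence for 7 of the 10 genes, at 8 start sites, and the 250 bases before each start were searched on both strands. The first motif was CACGTG, the core of the site bound by Tfeb, a regulator of lysosomal genes, and the second its longer form with GT before and AC after it, so every match of the second is also one of the first. The others were TTCNNNGAA, a core found in cytokine response elements, the wider form with 4 bases between TTC and GAA, a core of sites bound by Stat6, and GAAA and GAAA with 2 bases of any kind between them, a core of interferon response elements. The window of Ctsc, chr7:88277835-88278084 on the plus strand, holds TTCNNNGAA at 236 to 228 bases before the start, in capitals, and that of Ctss, chr3:95526536-95526785 on the plus strand, holds the interferon response core at 21 to 12 bases before the start, in capitals.
Ctsc: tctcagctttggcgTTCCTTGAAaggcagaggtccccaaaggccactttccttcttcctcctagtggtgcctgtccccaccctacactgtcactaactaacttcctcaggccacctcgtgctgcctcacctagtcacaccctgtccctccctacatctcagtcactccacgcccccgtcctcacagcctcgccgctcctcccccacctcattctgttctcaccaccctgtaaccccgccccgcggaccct
Ctss: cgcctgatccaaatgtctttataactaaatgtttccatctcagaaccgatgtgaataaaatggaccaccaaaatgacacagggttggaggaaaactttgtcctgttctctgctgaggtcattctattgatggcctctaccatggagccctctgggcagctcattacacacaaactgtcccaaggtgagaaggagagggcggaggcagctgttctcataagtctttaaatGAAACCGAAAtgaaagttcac

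CACGTG stood in 3 of the 8 windows, at 2 places in that of Ctsd, and is shown in capitals within 30 bases. Parts of these windows are exons of the same gene in GENCODE M21. Exon covers 211 of the 250 bases for Ctsd, 48 for Ctsl and 164 for the second start of Ctsa. The windows of Ctsl and of the second start of Ctsa lie wholly within the gene as GENCODE places it. The stretches are chr7:142388048-142388077 and chr7:142387908-142387937 on the minus strand for Ctsd, chr13:64370739-64370768 on the minus strand for Ctsl, and chr2:164833743-164833772 on the plus strand for the second start of Ctsa.
Ctsd, 245 to 240 bases before the start: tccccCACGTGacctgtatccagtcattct
Ctsd, 98 to 93 bases before the start: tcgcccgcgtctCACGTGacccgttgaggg
Ctsl, 236 to 231 bases before the start: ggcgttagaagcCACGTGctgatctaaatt
Ctsa, 12 to 7 bases before the start: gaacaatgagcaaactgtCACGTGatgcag
Among 32851 upstream windows of 250 bases in RefSeq, CACGTG was found in 6.02%, its longer form in 0.24%, TTCNNNGAA in 7.02%, the Stat6 core in 5.85% and the interferon response core in 2.98%. The windows of Ctsk, Ctsz and the first start of Ctsa held none of the 5. A match is a run of letters, and no binding was measured.

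Ctss was the most abundant member per kb of exon in all 12 groups, and Ctse the least. In control cultures at 8 h, levels per kb of exon ran in the order Ctss, Ctsd, Ctsb, Ctsz, Ctsl, Ctsk, Ctsa, Ctsh, Ctsc and Ctse, with Ctss at 10764 ± 948 CPM per kb (SD, n = 4), Ctsd at 6642 ± 666 and Ctsc at 31.4 ± 2.22. In that group only Ctsz and Ctsl overlapped among neighbours. With LPS at 24 and 72 h Ctsk stood above Ctsl, and both Ctsh and Ctsc above Ctsa, with overlap of Ctsc and Ctsa at 24 h. Ctsh also stood above Ctsa in control cultures at 72 h, with overlap. Ctsz stood above Ctsb with LPS at both times, but their values overlapped and the order was the reverse with the longest transcript as the length. With IL-4 at 72 h Ctsl stood above Ctsz, with no overlap. In the extract cultures at 24 h Ctsk stood above Ctsl, and Ctsc above Ctsh, again with no overlap. Levels per kb depend on the length chosen: with the longest transcript in place of all exons, 67 of the 120 group levels moved by more than 1 SD.

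Together the 10 genes took 3.89% ± 0.358, 3.31% ± 0.0785 and 5.30% ± 0.631 of all gene counts with extract at 8, 24 and 72 h (mean ± SD, n = 4, 3 and 3). They took 3.59% ± 0.183, 3.41% ± 0.200 and 3.54% ± 0.380 with LPS (n = 4 each) and 5.52% ± 0.307, 5.02% ± 0.223 and 5.21% ± 0.0915 with IL-4 (n = 4, 4 and 3). In the controls they took 5.77% ± 0.629, 5.67% ± 0.313 and 4.599% ± 0.502 (n = 4, 4 and 3). The mean shares were thus under 4% in all 3 LPS groups and with extract at 8 and 24 h, and above it in the other groups. Single extract libraries at 8 h reached up to 4.19%, and no test was run on the shares. They are shares of raw counts, without the TMM scaling of the CPM levels. LPS libraries at 8 h had TMM factors of 0.728 to 0.842, which raise their CPM levels but not these shares. Per kb, Ctss made up 41.8% of the cathepsin sum with IL-4 at 72 h and 66.0% with LPS at 72 h, its lowest and highest shares. Ctsd ranged from 13.4% with LPS at 24 h to 32.6% in control cultures at 24 h, and Ctsl from 1.40% with LPS at 72 h to 7.02% with IL-4 at 72 h.

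**Figure D1:**
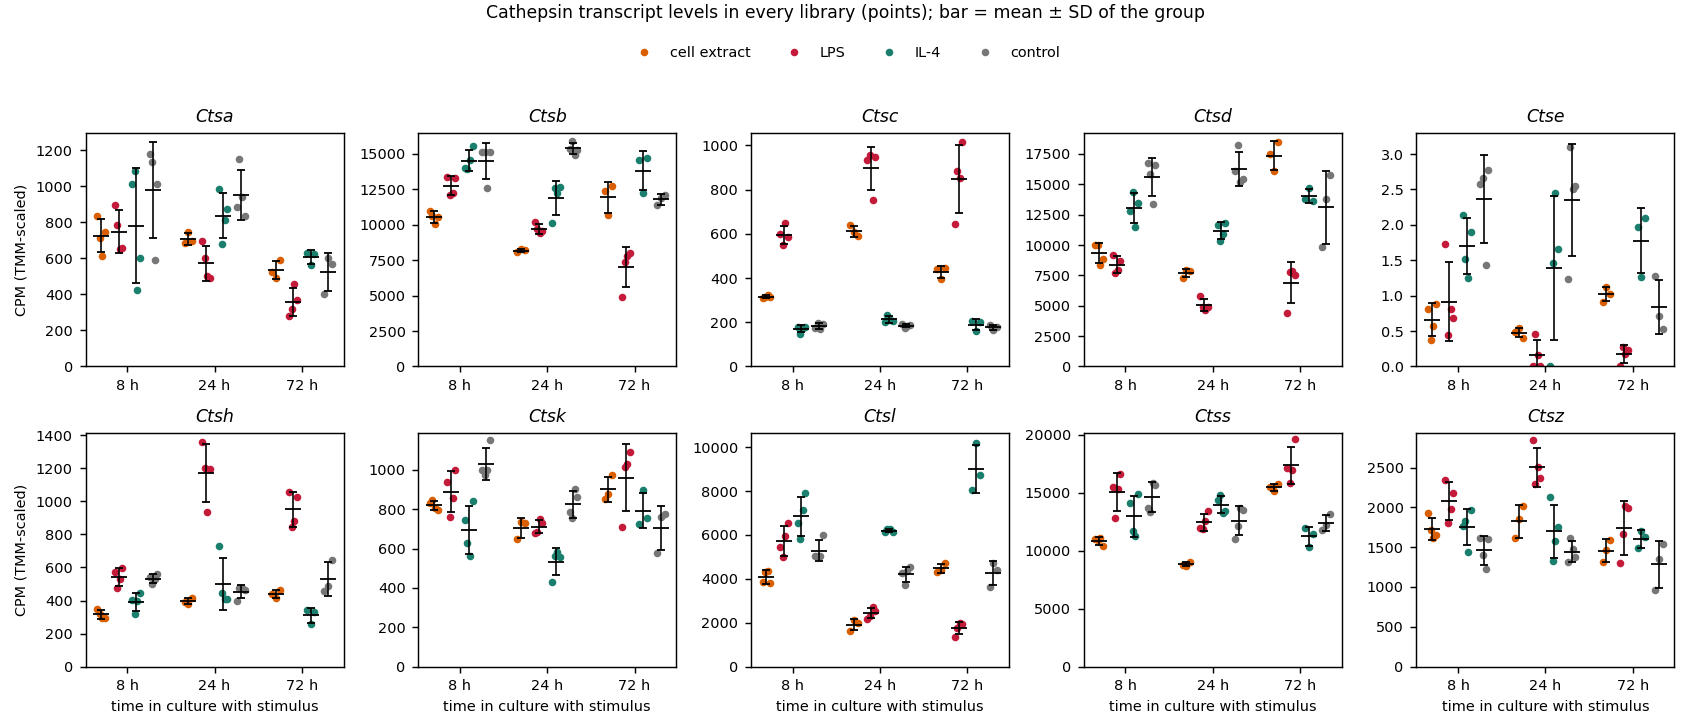
Level of each cathepsin in CPM (vertical axis, from 0) in every library (points) at 8, 24 and 72 h (horizontal axis), with bars for the group mean ± SD and colours for extract, LPS, IL-4 and control. Ctsc stands at 549 to 1013 CPM in all LPS libraries and at 159 to 208 CPM in IL-4 and control libraries at 72 h, while Ctsl with IL-4 at 72 h stands above every other library.

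Against control at the same time, the extract changed more cathepsins at 8 and 24 h than at 72 h. At 8 h 7 of 10 were called, 1 higher and 6 lower, against 30.2% of all genes tested called (13% higher, 17.2% lower). At 24 h 6 were called, 1 higher and 5 lower, against 22.1% of all genes (11.7% higher, 10.4% lower). At 72 h only Ctsc and Ctss were called, both higher, against 26.3% of all genes (14.2% higher), so the share of members called was below that of all genes. The median log2 change of the 10 was -0.43, -0.47 and 0.15 at the 3 times, beside -0.06, -0.06 and 0.00 over all genes.

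LPS changed members in both directions at each time. At 8 h 4 of 10 were called, 2 in each direction, near the 45.4% of all genes (21.3% higher, 24.1% lower). At 24 h 8 were called, 3 higher and 5 lower, against 37.9% (18.6% higher, 19.3% lower), and at 72 h 9 were called, 5 higher and 4 lower, against 31.5% (16.1% higher, 15.4% lower). The 8 calls at 24 h held under every alternative, but the 9 at 72 h were 5 with no filter, with the groups alone and without the libraries with over 10% ambiguous reads. The members' median log2 change was -0.08, -0.44 and -0.06, beside 0.00, -0.07 and 0.05 over all genes, with members moving in both directions. IL-4 changed 2, 4 and 2 of the 10 at 8, 24 and 72 h, against 8.33%, 9.5% and 23.7% of all genes. Of these, 1 was higher at each time (4.29%, 4.74% and 13.2% of all genes), and it was Ctsl at all 3. Lower were Ctsk at 8 h, Ctsb, Ctsd and Ctsk at 24 h, and Ctsh at 72 h (4.04%, 4.76% and 10.5% of all genes).

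Of the 44 calls against control, 28 held under every alternative tried, among them all 6 of Ctsc with extract and LPS, all 5 of Ctsd with these stimuli, and that of Ctsl with IL-4 at 72 h. A fit with no filter on low counts ended 4 more on its own: Ctsb at 8 h and Ctss at 24 h with extract, and Ctsk and Ctsl at 24 h with IL-4. The other 12 are named beside their values below.

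**Figure D2:**
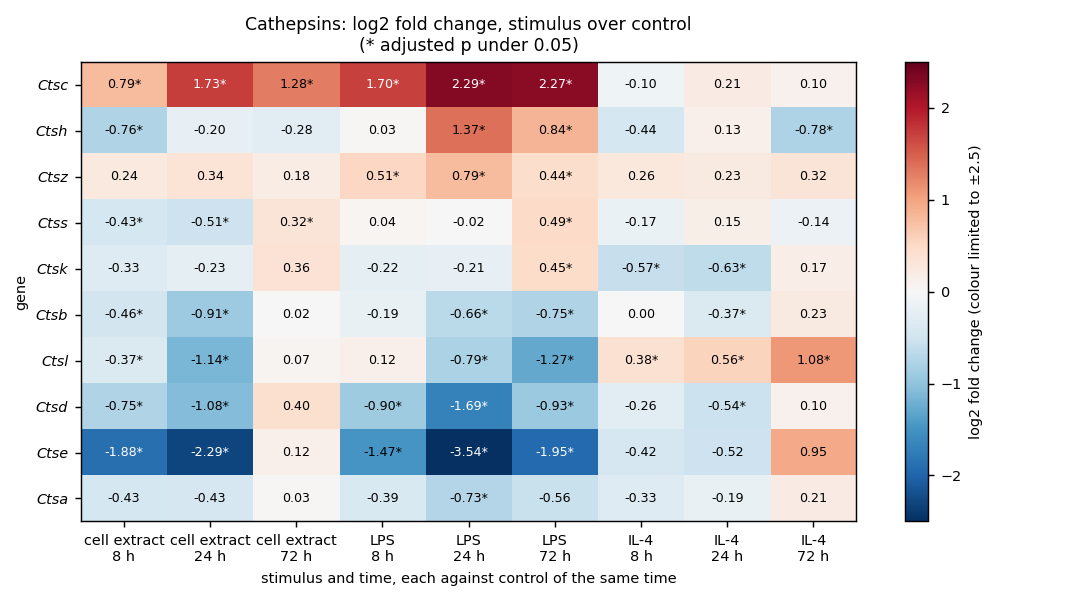
Fitted log2 fold change of each cathepsin (rows) with each stimulus over control of the same time (columns), coloured from -2.5 to 2.5, with a star where the edgeR adjusted p was under 0.05. Ctsc is higher in all 6 columns of extract and LPS, Ctsd and Ctse are lower in 5 of them, and Ctsl is lower with LPS at 72 h and higher with IL-4.

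Among the enzymes that trim peptides from their ends, Ctsc rose with both extract and LPS at every time. Ctsc (chr7:88278085-88310888, plus strand, GRCm38) encodes dipeptidyl peptidase I, which removes dipeptides and activates the serine proteases of neutrophils and cytotoxic lymphocytes. At 8 h its level was 309.8, 316, 323 and 315 CPM with extract, 598, 549, 649 and 585 CPM with LPS and 179.7, 146, 175 and 179.7 CPM with IL-4, against 175, 196, 169 and 191 CPM in control cultures. At 24 h it was 638, 606 and 588 CPM with extract, 934, 956, 752 and 947 CPM with LPS and 202, 233, 209 and 206 CPM with IL-4, against 191, 174, 183 and 188 CPM in control cultures. At 72 h it was 439, 396 and 447 CPM with extract, 642, 885, 852 and 1013 CPM with LPS and 208, 159 and 200.1 CPM with IL-4, against 186, 166 and 178 CPM in control cultures. At each time every LPS library stood above every extract library, and every extract library above all IL-4 and control libraries. With LPS the level was 3.26-fold, 4.88-fold and 4.81-fold that of control at 8, 24 and 72 h (log2 2.29 ± 0.12, SE; edgeR adjusted p = 3.31e-19 at 24 h). With extract it was 1.73-fold, 3.32-fold and 2.42-fold (log2 1.73 ± 0.12, SE; edgeR adjusted p = 1.21e-14 at 24 h). IL-4 gave log2 values of -0.10, 0.21 and 0.10, which did not pass the test, with an interval of -0.02 to 0.44 at 24 h. Its exons overlap no other counted gene.

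Ctsh (chr9:90054152-90076089, plus strand) encodes an aminopeptidase that is also known for processing surfactant protein in the lung. It fell with extract at 8 h and with IL-4 at 72 h, and rose with LPS at 24 and 72 h. Its libraries at 8 h held 351, 317, 296 and 297 CPM with extract, 575, 474, 531 and 596 CPM with LPS and 406, 319.9, 396 and 446 CPM with IL-4, against 545, 497, 528 and 561 CPM in control cultures. Those at 24 h held 388, 381 and 417 CPM with extract, 1360.3, 1204, 936 and 1198 CPM with LPS and 733, 445, 410.4 and 409.6 CPM with IL-4, against 396, 475, 477 and 465 CPM in control cultures. Those at 72 h held 437, 413 and 462 CPM with extract, 1055, 843, 882 and 1029 CPM with LPS and 343, 256 and 329.6 CPM with IL-4, against 457, 489 and 648 CPM in control cultures. At 24 and 72 h every LPS library stood above every library of the other groups, and at 8 h every extract library stood below every control. LPS raised Ctsh 2.59-fold at 24 h (log2 1.37 ± 0.15, SE; edgeR adjusted p = 6.02e-10) and 1.79-fold at 72 h (log2 0.84 ± 0.16, SE; edgeR adjusted p = 6.94e-05), and the extract lowered it 1.69-fold at 8 h (log2 -0.76 ± 0.15, SE; edgeR adjusted p = 9.15e-05). With IL-4 it fell 1.72-fold at 72 h (log2 -0.78 ± 0.17, SE; edgeR adjusted p = 8.53e-04). With IL-4 at 8 h the log2 value was -0.44 (edgeR adjusted p = 0.0579). IL-4 24 h replicate 1, at 733 CPM, stood apart from its group. That library also had the fewest gene counts of the series, 0.908 M, and Il1b, an inflammatory cytokine, at 30.5 CPM.

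Ctsz (chr2:174427493-174439039, minus strand) encodes a carboxypeptidase, also called cathepsin X, with a motif that binds integrins. It rose with LPS at all 3 times and was not called with extract or IL-4. Its libraries ran from 1799 to 2344 CPM with LPS, against 1229 to 1616 CPM in control cultures, at 8 h (log2 0.51 ± 0.15, SE; edgeR adjusted p = 0.00445). At 24 h they ran from 2289.7 to 2842 CPM with LPS, against 1308 to 1613 CPM in control (log2 0.79 ± 0.15, SE; edgeR adjusted p = 3.07e-05). At 72 h the ranges overlapped, 1296 to 2015 CPM with LPS against 966 to 1541 CPM in control (log2 0.44 ± 0.16, SE; edgeR adjusted p = 0.0347). Ctsz with extract had log2 values of 0.24, 0.34 and 0.18, and with IL-4 of 0.26, 0.23 and 0.32, at 8, 24 and 72 h. The LPS call at 72 h was lost without any single library other than control replicate 4 and LPS replicate 1 (adjusted p 0.0868 to 0.288) and with RLE size factors (0.0645), and that at 8 h without the libraries with over 10% ambiguous reads (adjusted p = 0.0655).

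Ctsb (chr14:63122462-63145923, plus strand) encodes a protease that cuts dipeptides from the carboxyl end and also cuts within chains. It fell with extract at 8 and 24 h, with LPS at 24 and 72 h and with IL-4 at 24 h. Libraries of 8 h had 11002, 10633, 10019 and 10534 CPM with extract, 13362, 12093, 12234 and 13312 CPM with LPS and 14000.3, 13965, 14568 and 15537 CPM with IL-4, against 15126, 15165, 12613 and 15141 CPM in control cultures. Libraries of 24 h had 8057, 8260.3 and 8207 CPM with extract, 10198, 9681, 9419 and 9550.1 CPM with LPS and 10155, 12573, 12226 and 12656 CPM with IL-4, against 15372, 15939, 14952 and 15308 CPM in control cultures. Libraries of 72 h had 12395, 10697 and 12715 CPM with extract, 4919, 7397, 7793 and 7988 CPM with LPS and 14555, 12213 and 14702 CPM with IL-4, against 11386, 11898 and 12087 CPM in control cultures. At 24 h all extract, LPS and IL-4 libraries stood below every control, and at 72 h the LPS libraries did so and no other group did. The extract lowered it 1.38-fold at 8 h (log2 -0.46 ± 0.11, SE; edgeR adjusted p = 0.00106) and 1.88-fold at 24 h (log2 -0.91 ± 0.12, SE; edgeR adjusted p = 1.14e-07), and at 72 h the log2 value was 0.02, with an interval of -0.24 to 0.28. LPS lowered it 1.58-fold at 24 h (log2 -0.66 ± 0.11, SE; edgeR adjusted p = 4.09e-06) and 1.68-fold at 72 h (log2 -0.75 ± 0.12, SE; edgeR adjusted p = 2.30e-06). The fall with IL-4 at 24 h (log2 -0.37 ± 0.11, SE; edgeR adjusted p = 0.0244) was lost without control replicate 1 (adjusted p = 0.0522), control replicate 2 (0.0706) or IL-4 replicate 1 (0.109). Of the exon bases of Ctsb, 12.8% are shared with Fdft1 on the other strand, and the strand setting of the counting is not given in the sources used here, so part of its reads may have gone to the ambiguous entry.

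Ctsl (chr13:64359337-64370890, minus strand) encodes a protease that cuts within chains and processes the invariant chain in thymic epithelium. It fell with extract at 8 and 24 h and with LPS at 24 and 72 h, and rose with IL-4 at all 3 times. At 8 h its level was 3833, 4310.5, 4369.99 and 3794 CPM with extract, 5428, 4987, 5969 and 6557 CPM with LPS and 6538, 5815, 7137 and 7926 CPM with IL-4, against 5018, 5050.4, 5022 and 5993 CPM in control cultures. At 24 h it was 1628, 2119 and 1997 CPM with extract, 2169.7, 2327, 2703 and 2517 CPM with LPS and 6117, 6269, 6250.4 and 6139.7 CPM with IL-4, against 4246, 3711, 4355 and 4518 CPM in control cultures. At 72 h it was 4316, 4379 and 4728 CPM with extract, 1369, 1779, 1980.5 and 1933 CPM with LPS and 8065, 10212 and 8729 CPM with IL-4, against 3638, 4719 and 4418 CPM in control cultures. At 24 h every extract and LPS library stood below, and every IL-4 library above, all controls. At 72 h the LPS libraries stood below and the IL-4 libraries above the controls, while the extract libraries lay within the range of the controls or just above it.

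IL-4 raised Ctsl 1.3-fold at 8 h (log2 0.38 ± 0.12, SE; edgeR adjusted p = 0.0485), 1.47-fold at 24 h (log2 0.56 ± 0.12, SE; edgeR adjusted p = 0.00179) and 2.11-fold at 72 h (log2 1.08 ± 0.14, SE; edgeR adjusted p = 3.50e-07). The extract lowered it 1.29-fold at 8 h (log2 -0.37 ± 0.12, SE; edgeR adjusted p = 0.0191) and 2.2-fold at 24 h (log2 -1.14 ± 0.14, SE; edgeR adjusted p = 1.40e-08). LPS lowered it 1.73-fold at 24 h (log2 -0.79 ± 0.12, SE; edgeR adjusted p = 1.42e-06) and 2.41-fold at 72 h (log2 -1.27 ± 0.13, SE; edgeR adjusted p = 3.06e-10), and its log2 value at 8 h was 0.12. The extract call at 8 h was lost without any single library other than control replicates 1 and 2 (adjusted p 0.0589 to 0.0879), and without the libraries with over 10% ambiguous reads (0.127). The IL-4 call at 8 h was lost without any single library other than control replicate 4 and IL-4 replicate 2 (adjusted p 0.0536 to 0.204).

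Ctss (chr3:95526786-95556403, plus strand) encodes a protease that stays active at neutral pH, degrades elastin and makes the last cut of the invariant chain in antigen-presenting cells. Its largest fold change against control was 1.43, with extract at 24 h. At 8 h its level was 10988, 10897, 11099.8 and 10369 CPM with extract, 15488, 12813, 15348 and 16651 CPM with LPS and 14069.6, 11654, 11222 and 14884 CPM with IL-4, against 13707, 13319, 15798 and 15647 CPM in control cultures. At 24 h it was 8739, 8699 and 9060.3 CPM with extract, 11977, 11844, 12545 and 13404 CPM with LPS and 14328, 14813, 13268 and 13432 CPM with IL-4, against 11037, 12148, 13665 and 13529 CPM in control cultures. At 72 h it was 15515, 15116 and 15718 CPM with extract, 17086, 15825, 16969 and 19612 CPM with LPS and 11985, 10342 and 11402 CPM with IL-4, against 11788, 12178 and 13195 CPM in control cultures. The extract libraries stood below every control at 8 and 24 h and above every control at 72 h. The extract lowered Ctss 1.35-fold at 8 h (log2 -0.43 ± 0.10, SE; edgeR adjusted p = 0.00104) and 1.43-fold at 24 h (log2 -0.51 ± 0.11, SE; edgeR adjusted p = 4.95e-04), and at 72 h it was 1.25-fold higher (log2 0.32 ± 0.12, SE; edgeR adjusted p = 0.0431). LPS gave log2 values of 0.04 and -0.02 at 8 and 24 h, with intervals of -0.17 to 0.25 and -0.23 to 0.19, and raised it 1.4-fold at 72 h (log2 0.49 ± 0.11, SE; edgeR adjusted p = 6.40e-04). The extract call at 72 h was lost with RLE size factors (adjusted p = 0.0975) and without any single library other than control replicate 4 (0.0914 to 0.120). Without the libraries with over 10% ambiguous reads the adjusted p was 0.108 with extract at 8 h and 0.0608 with LPS at 72 h, and that LPS call had 0.142 in a fit of those groups alone.

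The ratio of Ctsl to Ctss within a library, per kb of exon, separated the stimuli at 72 h. It was 0.0168 to 0.0244 with LPS, 0.141 to 0.207 with IL-4 and 0.0582 to 0.0629 with extract, against 0.0646 to 0.0811 in control cultures. The 4 ranges did not overlap. The ratio of Ctsc to Ctsb at 72 h was 0.114 to 0.136 with LPS and 0.0367 to 0.0385 with extract, against 0.0145 to 0.0171 in control. The ratio of Ctsd to Ctss at 24 h was 0.211 to 0.28 with LPS and 0.484 to 0.525 with extract, against 0.643 to 0.866 in control. These pairs were picked after the levels were known, so the ratios are a description without a test.

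**Figure D3:**
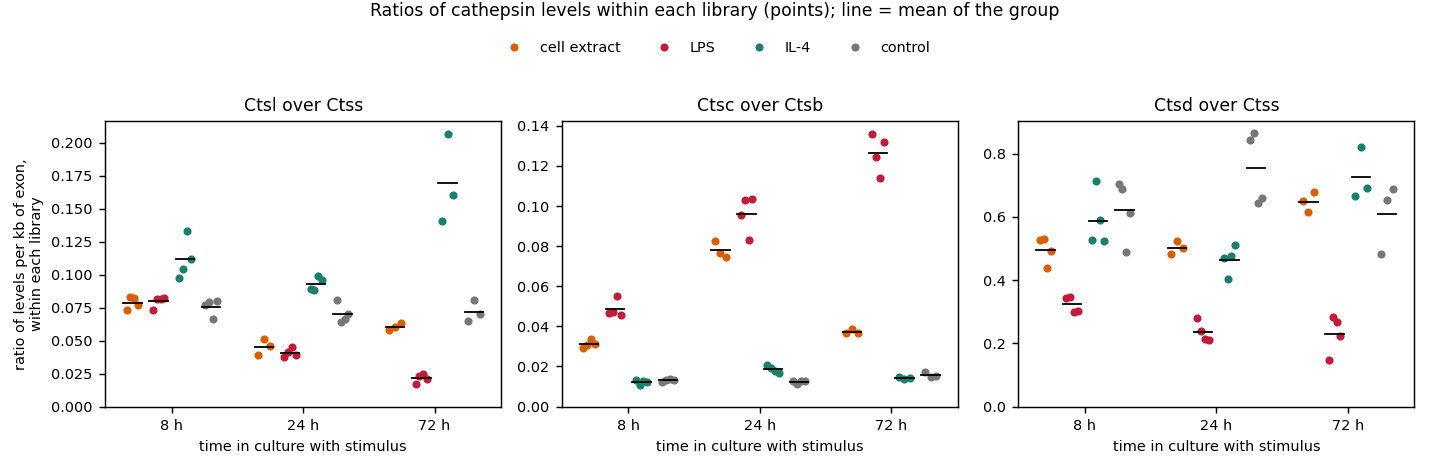
Ratio of 2 cathepsin levels per kb of exon within each library (points, vertical axis from 0) at 8, 24 and 72 h, with a line at the mean of each group and colours for extract, LPS, IL-4 and control. Ctsl over Ctss is 0.0168 to 0.0244 with LPS and 0.141 to 0.207 with IL-4 at 72 h, on either side of the controls.

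Ctsk (chr3:95499256-95509362, plus strand) encodes the collagenase by which osteoclasts dissolve bone matrix. At 8 h it ran from 798 to 845 CPM with extract, 760.4 to 999 CPM with LPS and 563 to 844 CPM with IL-4, against 975 to 1152 CPM in control. IL-4 lowered it 1.49-fold at 8 h (log2 -0.57 ± 0.13, SE; edgeR adjusted p = 0.00287). At 24 h it ran from 431 to 584 CPM with IL-4, against 754 to 900.3 CPM in control (log2 -0.63 ± 0.13, SE; edgeR adjusted p = 9.47e-04). No IL-4 library at 8 or 24 h reached the lowest control. At 72 h LPS raised it 1.37-fold, with overlapping ranges of 708 to 1089 CPM with LPS against 578 to 777 CPM in control (log2 0.45 ± 0.14, SE; edgeR adjusted p = 0.0134). That call was lost without control replicate 1 (adjusted p = 0.142) or LPS replicate 2 (0.0759), and in a fit of those groups alone (0.204), as was the IL-4 call at 8 h (0.0854). With extract the log2 values were -0.33, -0.23 and 0.36 (edgeR adjusted p = 0.0518, 0.296 and 0.079), and with the replicate number as a block the 8 h value passed (0.0388). The 5 other osteoclast markers summed to 272 to 520 CPM with IL-4 at 24 h, where Ctsk was lower, against 67.2 to 115 CPM in control. With extract at 24 h, where Ctsk was not called, they summed to 512 to 544 CPM. Their highest sums were with LPS at 8 h, where Ctsk was also not called. These sums were 603 to 684 CPM, against 83.8 to 124 CPM in control. With LPS at 72 h, where Ctsk was higher, they summed to 194 to 273 CPM, against 131 to 201 CPM in control. Of these 5 markers, Oscar and Calcr had only 25 and 103 counts over all 44 libraries, so the sums rest mostly on the others. The part of these markers in the result was not tested.

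Ctsd and Ctse, the aspartic proteases, both fell with extract at 8 and 24 h and with LPS at all 3 times. Ctsd (chr7:142375911-142388038, minus strand) encodes the main aspartic protease of the lysosome. The 8 h libraries held 10014, 10003, 8393 and 8819 CPM with extract, 9193, 7689.7, 7972 and 8699.7 CPM with LPS and 12821, 14393, 11456 and 13459.5 CPM with IL-4, against 16714, 15842, 13338 and 16565 CPM in control cultures. The 24 h libraries held 7324, 7905 and 7844 CPM with extract, 5803, 4879, 4642 and 4896 CPM with LPS and 11653, 10338, 10935 and 11853 CPM with IL-4, against 16137, 18221, 15213 and 15475 CPM in control cultures. The 72 h libraries held 17507, 16096 and 18451 CPM with extract, 4385, 7783, 7891 and 7536 CPM with LPS and 13827, 14713 and 13623 CPM with IL-4, against 9839, 13794 and 15727 CPM in control cultures. All LPS libraries stood below every control at each time, and the extract libraries stood below every control at 8 and 24 h and above every control at 72 h. LPS lowered Ctsd 1.86-fold, 3.22-fold and 1.9-fold at 8, 24 and 72 h (log2 -1.69 ± 0.14, SE; edgeR adjusted p = 4.20e-13 at 24 h). The extract lowered it 1.68-fold at 8 h (log2 -0.75 ± 0.14, SE; edgeR adjusted p = 3.42e-05) and 2.11-fold at 24 h (log2 -1.08 ± 0.15, SE; edgeR adjusted p = 3.68e-07). At 72 h the extract value was 0.40 ± 0.16 on the log2 scale (edgeR adjusted p = 0.0553), and without control 72 h replicate 4, which had under 2 M gene counts, it passed (0.0193). IL-4 lowered Ctsd at 24 h (log2 -0.54 ± 0.14, SE; edgeR adjusted p = 0.00726), a call lost in a fit of those groups alone (0.0778). LPS 72 h replicate 1, with 1.10 M gene counts, stood apart at 4385 CPM.

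Ctse (chr1:131638306-131675505, plus strand) encodes an aspartic protease of endosomes, known in immune and gut cells, and was near the limit of detection. With LPS at 24 h it had 8 counts over 4 libraries and with LPS at 72 h 6 counts, so its values below carry large counting error. Its levels at 24 h were 0.493, 0.537 and 0.405 CPM with extract and 0, 0.465, 0.159 and 0 CPM with LPS, against 1.23, 3.1, 2.51 and 2.55 CPM in control. Neither stimulus reached the lowest control at that time. The fitted log2 changes were -2.29 ± 0.47 with extract (SE; edgeR adjusted p = 2.09e-04) and -3.54 ± 0.51 with LPS (SE; edgeR adjusted p = 2.23e-07). At 8 h they were -1.88 with extract and -1.47 with LPS, both called, and at 72 h 0.12 and -1.95, of which the LPS value was called (edgeR adjusted p = 0.0297). The LPS call at 72 h was lost without control replicate 1 (0.377), LPS replicate 3 (0.0636) or LPS replicate 4 (0.0665), and without the libraries with over 10% ambiguous reads (0.0847).

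Ctsa (chr2:164832873-164841032, plus strand) encodes the protective protein that stabilises the lysosomal enzymes Neu1, a sialidase, and Glb1, a galactosidase. It fell with LPS at 24 h, to 697, 601, 499 and 492 CPM with LPS, against 885, 1148, 939.6 and 831 CPM in control (log2 -0.73 ± 0.21, SE; edgeR adjusted p = 0.0045), with no overlap. In the other comparisons with control it did not pass, with log2 values from -0.56 with LPS at 72 h to 0.21 with IL-4 at 72 h. At 72 h the LPS libraries held 278, 320.2, 456 and 369.7 CPM, against 404, 602 and 569 CPM in control, and the difference passed with DESeq2 (adjusted p = 0.0308), without control replicate 1 (0.0311) or LPS replicate 3 (0.0311), while edgeR with all libraries gave 0.0558. At 8 h it ran from 611 to 833 CPM with extract, 650.1 to 898 CPM with LPS and 424 to 1083 CPM with IL-4, against 591 to 1179 CPM in control. Control replicate 3 was the lowest at 591 CPM, and without it the differences with extract (log2 -0.43 with it; adjusted p = 0.0458 without) and LPS (-0.39 with it; 0.0225 without) passed. That library had 16.1% ambiguous reads and Rn18s-rs5 at 63154 CPM, against 162 to 3544 CPM in the other controls of that time, whose part was not tested, and 17.4% of the exon bases of Ctsa are shared with Pltp and Neurl2 on the other strand. Neu1 rose with LPS at 24 h (log2 0.77; edgeR adjusted p = 9.38e-05) and at 72 h (0.80; 2.98e-04), and Glb1 fell at 24 h (-0.35; 0.0172).

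Set directly against LPS, the extract left Ctsc and Ctsh lower at every time. At 8 h 4 of 10 cathepsins were called in that comparison, all lower with extract, against 29.1% of all genes (15.1% lower). They were Ctsc (log2 -0.91), Ctsh (-0.79), Ctsl (-0.49) and Ctss (-0.48). At 24 h 5 were called, against 16.8% of all genes: Ctsh (-1.57), Ctsc (-0.55), Ctss (-0.49) and Ctsz (-0.46) were lower (8.76% of all genes), and Ctsd was higher (0.61; 8.06% of all genes higher). At 72 h 6 were called, against 22.4%, with 4 higher (11% of all genes) and 2 lower (11.4%).

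At 72 h the extract libraries had, against LPS, more Ctsl (log2 1.34 ± 0.13, SE; edgeR adjusted p = 5.43e-10), Ctsd (1.33 ± 0.15; 6.23e-09), Ctsb (0.76 ± 0.12; 4.55e-06) and Ctse (2.07 ± 0.61; 0.0114). They had less Ctsh (-1.12 ± 0.17; 1.97e-06) and Ctsc (-0.99 ± 0.12; 9.46e-08). All 6 held under every alternative. At 8 h the calls of Ctsl and Ctss, and at 24 h those of Ctsc, Ctsd and Ctss, were lost only in the fit with no filter. At 24 h the call of Ctsz was lost without any single library other than LPS replicate 2 (adjusted p 0.0552 to 0.242), and Ctsl, at log2 -0.34 (edgeR adjusted p = 0.0766), passed with the replicate number as a block (0.021).

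Set against LPS, IL-4 left Ctsc and Ctsh lower and Ctsd higher at every time. At 8 h 4 of 10 were called, against 42.6% of all genes, namely Ctsc (log2 -1.81), Ctsh (-0.47) and Ctsk (-0.35), lower (20.8% of all genes), and Ctsd (0.64), higher (21.8%). At 24 h 9 were called, all but Ctss, against 36.2%, with 5 higher and 4 lower (18.1% of all genes in each direction). At 72 h 8 were called, all but Ctsk and Ctsz, against 39.1%, with 5 higher (20.4%) and 3 lower (18.7%). The 72 h values were largest for Ctse (2.90 ± 0.56, on few counts), Ctsl (2.35 ± 0.14; edgeR adjusted p = 1.82e-17), Ctsc (-2.17 ± 0.13; 6.76e-17) and Ctsh (-1.62 ± 0.17; 2.13e-10), on the log2 scale with SE. The calls of Ctsh at 8 h, Ctsk and Ctsz at 24 h and Ctss at 72 h were lost in the fit with no filter. Calls that rested on single libraries were those of Ctsk at 8 h and of Ctsa and Ctsb at 24 h. Ctsk was lost without any single library other than LPS replicate 2 and IL-4 replicates 1 and 4 (adjusted p 0.0573 to 0.152). Ctsa was lost without any other than LPS replicate 1 and IL-4 replicate 2 (0.0537 to 0.134), and Ctsb without any other than LPS replicate 1 and IL-4 replicate 1 (0.0603 to 0.101). These comparisons share the LPS libraries with those against control.

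Calls of cathepsins with time in control cultures came only at 72 h. Between 24 and 8 h edgeR called 0 of 10, against 0.537% of all genes, and DESeq2 also called 0. Of the 10, 3 had an unadjusted p under 0.05, a threshold at which the share of all genes was not counted. At 72 h, against 8 h, 2 of 10 were called, both lower, against 13.5% of all genes (6.38% higher, 7.16% lower). In that comparison 6 had an unadjusted p under 0.05, again without a count of all genes at that threshold. The median log2 change of the 10 was -0.275, beside -0.0523 over all genes. Ctsa held 404, 602 and 569 CPM at 72 h, against 1179, 1135, 591 and 1010.02 CPM at 8 h (log2 -0.90 ± 0.23, SE; edgeR adjusted p = 0.0074). Ctsk held 578, 759 and 777 CPM at 72 h, against 998, 975, 1002 and 1152 CPM at 8 h (log2 -0.55 ± 0.14, SE; edgeR adjusted p = 0.00843). The values of Ctsa overlapped and those of Ctsk did not. Both calls were lost without control 72 h replicate 1 (adjusted p 0.079 and 0.0992), and without control 8 h replicate 3 those of Ctsb (0.0424) and Ctse (0.0469) were gained.

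The effect of the extract at 72 h less that at 8 h was tested as an interaction, which called 6 of 10, all higher, against 21.9% of all genes (13.1% higher). The differences on the log2 scale were 1.15 ± 0.21 for Ctsd (SE; edgeR adjusted p = 8.23e-05), 0.75 ± 0.16 for Ctss (4.98e-04), 0.69 ± 0.20 for Ctsk (0.0111), 2.00 ± 0.74 for Ctse (0.0467), 0.48 ± 0.17 for Ctsb (0.0366) and 0.48 ± 0.17 for Ctsc (0.0391). For Ctsb, Ctsd, Ctse and Ctss the extract value was a called fall at 8 h. At 72 h their values were no longer below 0, but only that of Ctss was called, a call lost with RLE size factors. The interaction call of Ctsk was lost without the libraries with over 10% ambiguous reads (0.0779). The calls of Ctsb, Ctsc and Ctse were lost with RLE size factors (0.0916, 0.0953 and 0.0611) and without most single libraries. Ctsb was kept only without control 8 h replicate 3 or extract 8 h replicate 1 (lost at adjusted p 0.0513 to 0.119), and Ctsc only without control 8 h replicates 1 or 3 or control 72 h replicate 1 (lost at 0.0541 to 0.1798). Ctse was kept only without control 8 h replicate 3, extract 8 h replicates 1 or 4, or control 72 h replicate 1 (lost at 0.0654 to 0.122).

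For LPS the same interaction called 6 of 10, against 30% of all genes, with 4 higher (15.7%) and 2 lower (14.3%). Ctsl differed most, at -1.39 ± 0.18 on the log2 scale (SE; edgeR adjusted p = 1.01e-07), its LPS value being 0.12 at 8 h and -1.27 at 72 h. Ctsb also moved down (-0.56 ± 0.16; 0.00681), while Ctsh (0.81 ± 0.22; 0.00393), Ctsk (0.67 ± 0.19; 0.00741), Ctsc (0.56 ± 0.17; 0.00873) and Ctss (0.44 ± 0.15; 0.0233) moved up. The call of Ctsb was lost with no filter (0.604), and that of Ctsk with no filter (0.0672), with those groups alone (0.0769) and without the libraries with over 10% ambiguous reads (0.065). The call of Ctsc was lost without control 72 h replicate 3 (0.0573). That of Ctss was lost without control 8 h replicate 4 (0.0508), LPS 8 h replicate 2 (0.0872), control 72 h replicate 1 (0.0581) or control 72 h replicate 3 (0.1004). For IL-4 2 of 10 were called, both higher, against 16.1% of all genes (9.51% higher), namely Ctsk (0.74 ± 0.20; 0.00989) and Ctsl (0.70 ± 0.19; 0.0096), both lost in a fit of those groups alone (0.0818 and 0.108). The 3 interactions share the control libraries of 8 and 72 h.

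In a list of cystatins and serpins, some of which inhibit other proteases, 10 of 15 genes could be tested. With LPS at 24 h 6 were higher and 2 lower, beside 18.6% and 19.3% of all genes, and with extract at 24 h 5 were higher and 3 lower, beside 11.7% and 10.4%. With IL-4 1 was higher at each time, beside 4.29%, 4.74% and 13.2%. Their median log2 change at 24 h was 1.75 with LPS and 1.02 with extract, beside -0.07 and -0.06 over all genes. Cst7, a cystatin also called cystatin F, held 77.7 ± 27.8 CPM with LPS and 7.69 ± 1.46 CPM with extract, against 0.52 ± 0.48 CPM in control at 24 h (mean ± SD; log2 7.56 with LPS and 4.22 with extract; edgeR adjusted p = 5.56e-16 and 1.19e-07). The serpins Serpina3f and Serpina3g and Serpinb9, an inhibitor of granzyme B, were also among the most significant at that time, with log2 values of 8.03, 6.90 and 3.83 with LPS and 5.61, 4.19 and 2.25 with extract, all called. Cst3, or cystatin C, the main secreted cystatin, fell with extract at 24 h (-0.73; edgeR adjusted p = 0.0068) and at 72 h (-1.04; 3.62e-04). Cstb, a cytosolic cystatin, rose with LPS at 24 h (0.57; 0.0275) and did not pass elsewhere against control. Stfa3 held 49.97 ± 11.8 CPM with LPS at 72 h, against 1 count over the 3 control libraries, and belongs, like the Serpina3 genes, to a family of near-identical copies, so its reads may be split.

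Genes of cathepsin processing and of the MHC class II path that cathepsins serve did not move as 1 block. With LPS at 24 h and at 72 h 8 of 10 were higher and 1 lower, beside 18.6% and 16.1% of all genes higher and 19.3% and 15.4% lower. With extract at 24 h 5 were higher and 1 lower, beside 11.7% and 10.4%, and with IL-4 7 were higher at 24 h (4.74%) and 4 lower at 72 h (10.5%). The median log2 change at 24 h was 1.64 with LPS, 0.67 with extract and 0.86 with IL-4, beside -0.07, -0.06 and -0.03 over all genes. Lgmn, the asparaginyl endopeptidase that processes cathepsin precursors, was lower at all times with extract (log2 -1.32, -1.14 and -0.67) and with LPS (-0.90, -1.66 and -1.75), all called, and was not called with IL-4. Cd74, the invariant chain that Ctss cuts, was 1.21 with LPS at 24 h and 3.04 at 72 h, and 0.97 with extract at 72 h, on the log2 scale, all called. Sppl2a, the intramembrane protease that removes the remnant of Cd74, was higher at all 3 times with extract (1.01, 1.44 and 1.12) and with LPS (2.17, 2.14 and 1.42), all called.

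**Figure D4:**
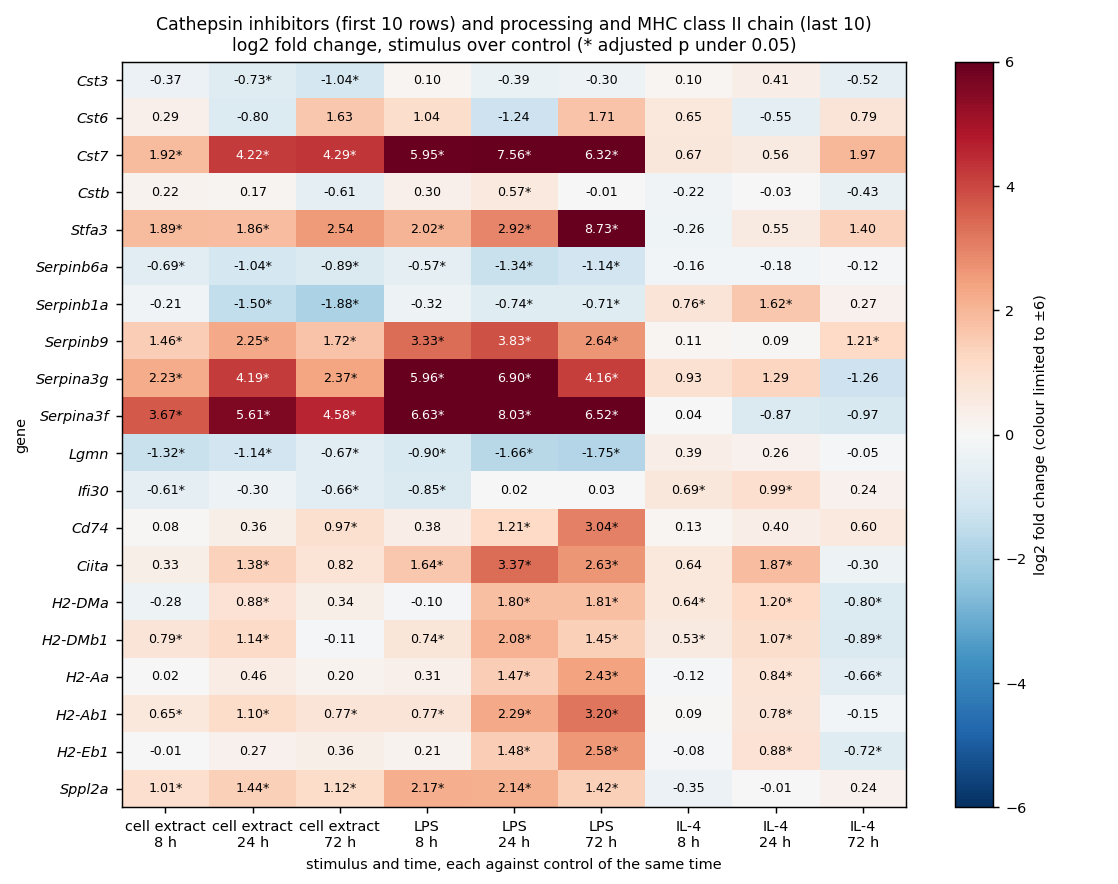
Fitted log2 fold change with each stimulus over control of the same time (columns) for 10 listed cystatins and serpins and 10 genes of cathepsin processing and MHC class II (rows), with a star where the edgeR adjusted p was under 0.05. Cst7, Serpina3f, Serpina3g and Serpinb9 are higher and Lgmn lower in all 6 columns of extract and LPS, and the 72 h values of Cst7 and Stfa3 rest on 3 and 1 counts in the controls and are no measure of size.

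Other genes of the lysosome were listed in the same way. Of 5 regulators of lysosomal genes, Tfeb was lower with extract (log2 -1.39, -1.30 and -0.85) and LPS (-2.12, -1.31 and -1.39) at 8, 24 and 72 h, all called, and Tfec was higher with extract at 8 h (2.28), with LPS at 8 and 24 h (1.16 and 0.52) and with IL-4 at each time (1.21, 0.92 and 0.94), all called. Of 16 subunits of the proton pump that acidifies the lysosome, LPS lowered 5, 7 and 8 at 8, 24 and 72 h and raised 4 and 2 at 8 and 24 h, beside 24.1%, 19.3% and 15.4% of all genes lower and 21.3% and 18.6% higher. Extract lowered 5, 5 and 4 at the 3 times and raised 3 and 1 at 8 and 24 h, beside 17.2%, 10.4% and 12.2% of all genes lower and 13% and 11.7% higher. IL-4 at 72 h raised 5 and lowered 1, beside 13.2% higher and 10.5% lower. Atp6v0a1, a membrane subunit of the pump, was -2.70 with LPS, -1.08 with extract and 0.83 with IL-4 at 24 h, all called. Among 11 genes of sorting to the lysosome, M6pr, the small mannose 6-phosphate receptor, was higher at 24 h with extract (0.89) and LPS (0.96), both called. Igf2r, the large mannose 6-phosphate receptor, was lower with LPS at 8, 24 and 72 h (-1.17, -0.90 and -1.13), all called, and was not called with extract. The sorting receptor Sort1 was -3.64 with LPS at 24 h, also called. LPS at 24 h lowered 6 and raised 1 of that list, beside 19.3% and 18.6% of all genes. Psap, the precursor of the saposins, fell with extract (-0.94) and LPS (-0.99) at 24 h, both called. Among listed genes of the lysosomal membrane, LPS at 24 h lowered Lamp1 (-0.55), Cd63 (-0.64) and Npc1 (-0.88), all called, and the others were not called. With extract at 72 h Npc1 (1.19) and Lamp2 (0.69) were higher and Cd63 (-0.56) and Cd68 (-0.50) lower, all called.

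Other cathepsins were scarce. Of 14 further genes of the name or fold, 10 had too few counts to test. Of the 4 tested, Ctsf, a cysteine protease, fell with extract (log2 -1.34) and LPS (-1.74) at 24 h, both called. Ctso, another, fell with extract at 8 h (-0.47) and LPS at 24 h (-0.72) and rose at 72 h with extract (0.64) and IL-4 (0.75), all called. Tinagl1, a secreted relative without protease activity, fell at 72 h with extract (-2.35) and LPS (-1.44), both called. Ctsw, known from cytotoxic lymphocytes, held 1.05 ± 0.195 CPM with extract and 1.04 ± 0.58 CPM with LPS, against 0.279 ± 0.126 CPM in control, at 8 h (SD, n = 4 each). Both rises passed, on 35, 26 and 17 counts in those groups, while T cell markers summed to at most 7.03 CPM in any library, and their part was not tested.

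Over the 12 group means of log2 CPM, the genes most like a cathepsin in pattern were found among 8113 genes (8114 for Ctse) with a mean of at least 10 CPM, as a description without a test. Ctsc was most like C1ra, a complement protease (Pearson r = 0.985), and Lrrc8c, a subunit of volume-regulated anion channels (0.9747). Ctsb was most like the lysosomal membrane gene Lamp1 (0.964), then Il7r (0.937) and Gpnmb (0.933). Ctsd was most like Reps2 (0.939), Plxnc1 (0.925) and Mfge8 (0.918), and Ctsl most like Snx16 (0.914). The highest r was 0.941 for Ctse (Msra), 0.949 for Ctsa (Anapc2), 0.930 for Ctsz (Bak1) and 0.914 for Ctsh (Prdx2), and was lowest for Ctsk (0.852, Eif4a2) and Ctss (0.842, Polr1c). All genes of a group mean come from the same libraries.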

How the data were processed

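RNA of 44 macrophage cultures in 12 groups was sequenced from poly(A) libraries (Diagenode CATS mRNA-seq kit, 50 bp single-end reads, per the labels' protocols). The deposited table holds raw counts per gene, which the authors made with HTSeq. The submitters' processing notes also name edgeR, DESeq, Bowtie2, cutadapt, TopHat, TopHat2 2.1.1 and build mm10; neither the strand setting nor an annotation release is named in the sources used here. The 5 summary entries of HTSeq stayed out of all totals.

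Counts were scaled by TMM and fitted in edgeR 4.0.16 (R 4.3.3, limma 3.58.1) with the quasi-likelihood test, without a replicate block, over all 12 groups, which share 1 estimate of the spread (common coefficient of variation 0.219, 32 residual degrees of freedom). Genes passing filterByExpr with a minimum count of 10 were tested, 14537 of 46078. Adjustment was by Benjamini-Hochberg within a comparison, with a threshold of 0.05, and fold changes carry a prior count of 0.125. Standard errors were taken from the fold change and its F value, and levels per kb use the summed exon length of GENCODE M21 (GRCm38), which also gives positions. The procedure was tested on simulated counts. No library was a copy of another.

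Depth was 0.908 to 26.6 M gene counts per library, which limits Ctse most. The comparisons were each stimulus against control and against LPS at the same time, control over time, and the interaction of stimulus with time. Alternatives were RLE size factors, DESeq2 1.42.0, no filter, a block for the replicate number, fits of the compared groups alone, each library left out, and, added after the data were seen, leaving out libraries with over 10% ambiguous reads or under 2 M counts. Same-numbered cultures deviated together in 6 comparisons with at least 3 pairs each (extract and LPS against control at 8 and 24 h, extract against LPS at 24 h, control at 24 against 8 h), where every pair's correlation of deviations from the group means was over 0.1 (0.1055 to 0.655); the pairing comes from that correlation.

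The members and the gene lists were chosen with earlier results of these data known. The naming rule takes in all 10 cathepsins, of which those called in a comparison are printed first and the others where their values are described. From each list, members named are among the up to 4 called with the smallest p in a comparison, and Cst3, Cstb, Lgmn and Cd74 always. Not every called member or comparison of a list is described. Genes of like pattern are the 3 with the highest Pearson correlation of 12 group means of log2 CPM. For Ctsc 1 of the 3 is not reported here. In the list of cystatins and serpins 4 genes had too few counts to test and 1 was not in the table. Upstream sequences are those of RefSeq. Positions of motifs count back from the RefSeq start used, which can lie inside the gene as GENCODE places it.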

Additional observations from a re-analysis of the deposited data

Results flagged for a closer look

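Single libraries stood apart from their group in 9 of the 80 groups of 4 values tested by Dixon's criterion, which chance passes in about 1 of 20 groups. In control cultures at 8 h, replicate 3 had 12613 CPM of Ctsb (15126 to 15165 CPM in the others) and 1.44 CPM of Ctse (2.58 to 2.77 CPM). Replicate 4 of that group had 1152 CPM of Ctsk (975 to 1002 CPM in the others) and 5993 CPM of Ctsl (5018 to 5050.4 CPM). Control 24 h replicate 1 had 396 CPM of Ctsh, against 465 to 477 CPM in the others. With IL-4, replicate 2 at 8 h had 146 CPM of Ctsc (175 to 179.7 CPM in the others), and replicate 1 at 24 h had 733 CPM of Ctsh (409.6 to 445 CPM). With LPS, replicate 3 at 24 h had 752 CPM of Ctsc (934 to 956 CPM in the others), and replicate 1 at 72 h had 4385 CPM of Ctsd (7536 to 7891 CPM).

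The effect of a stimulus at 72 h differed from that at 8 h, by the edgeR interaction test, in 14 cases. On the log2 scale, the differences for extract were 1.15 (Ctsd), 2.00 (Ctse), 0.75 (Ctss), 0.69 (Ctsk), 0.48 (Ctsb) and 0.48 (Ctsc). For LPS they were -1.39 (Ctsl), -0.56 (Ctsb), 0.81 (Ctsh), 0.67 (Ctsk), 0.56 (Ctsc) and 0.44 (Ctss). For IL-4 they were 0.74 (Ctsk) and 0.70 (Ctsl). Over all genes the same test called 21.9% for extract, 30% for LPS and 16.1% for IL-4. Only the calls of Ctsd with extract and of Ctsh and Ctsl with LPS held under every alternative. Control cultures at 72 h, which enter all 14, also had the highest summed levels of mesothelial and fibroblast markers, whose part was not tested.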

How the results depend on the processing

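No called value of a cathepsin reversed under any alternative. Of 200 values (10 genes in 20 comparisons), 190 kept their side of the threshold with DESeq2, 191 with RLE size factors, 192 with the replicate block, 161 with no filter, 183 without libraries under 2 M counts and 177 without those with over 10% ambiguous reads, as did 169 of 193 in fits of the compared groups alone. Numbers of cathepsins called moved by over 1.5 times in these cases. For extract at 72 h (2 called), the number was 1 with RLE, with no filter, with the compared groups alone and without ambiguous-rich libraries, 4 without shallow ones and 1 to 3 with single libraries left out. For the extract interaction (6), it was 3 with RLE and with the replicate block, 1 with no filter, 2 without ambiguous-rich libraries and 3 to 6 with single libraries left out. For LPS at 72 h (9), it was 5 with no filter, with the groups alone and without ambiguous-rich libraries. For the LPS interaction (6), it was 2 with no filter and 3 with the groups alone or without ambiguous-rich libraries. With no filter it was also 4 for extract at 8 h (7), 1 and 0 for IL-4 at 8 h (2) and 24 h (4), 2 and 1 for extract against LPS at 8 h (4) and 24 h (5), 2 for IL-4 against LPS at 8 h (4), 1 for the IL-4 interaction (2) and 1 for control at 72 against 8 h (2). With the groups alone it was 0 for IL-4 at 8 h, 2 for IL-4 at 24 h, and 0 for the IL-4 interaction and control at 72 against 8 h. For IL-4 at 8 h it was also 1 without ambiguous-rich libraries and 1 to 2 with single libraries left out, and for control at 72 against 8 h 4 without shallow libraries and 0 to 4 with single libraries left out. The cause was not tested. Where cultures share only a number, the block also passed Ctsa with LPS at 72 h (adjusted p = 0.0414), Ctsa in extract against LPS at 72 h (0.0408) and Ctsh with IL-4 at 8 h (0.0365), and lost Ctsb, Ctsc and Ctse in the extract interaction (0.0661, 0.0581 and 0.0535); it changed no other call except Ctsk at 8 h and Ctsl at 24 h, given above.

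Over all genes, fits of the compared groups alone called 2787 (4576 in the full fit) for LPS at 72 h, 615 (1211) and 814 (1381) for IL-4 at 8 and 24 h, 4282 (2446) for extract against LPS at 24 h, 1051 (1968) for control at 72 against 8 h and 1367 (2338) for the IL-4 interaction. Control at 24 against 8 h gave 78, and 368 with no filter, 122 alone, 191 with DESeq2, 23 without ambiguous-rich and 242 without shallow libraries, and 27 to 84 with single libraries left out; control at 72 against 8 h then gave 851 to 2505. RLE shifted the median of all genes by -0.11 (log2) for IL-4 at 72 h, -0.13 for the extract and -0.15 for the IL-4 interaction. The share of calls that were higher was 42.3% with RLE, against 55.6% with TMM, for IL-4 at 72 h, 41.6% against 59.2% for the IL-4 interaction, 48.1% against 60.0% for that of extract, and 64.1% against 47.1% for control at 72 against 8 h. Among the members, Ctse is limited by depth.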
